A study of Mus musculus with 4 samples.

Results

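CD8 T cells of old and young donors were compared after both had been moved into young T cell-free hosts bearing the same tumour. The members are cell barcodes of 2 libraries, labelled Aged and Young, that had at least 1000 unique molecular identifiers (UMIs, 1 per captured RNA molecule), 500 or more genes detected and no more than 10% of UMIs from mitochondrial genes. Each also had at least 1 UMI of Cd3d, Cd3e or Cd3g and at least 1 of Cd8a or Cd8b1. This gate kept 8252 of 9048 Aged and 9803 of 11060 Young barcodes. Together these are 18055 of the 35174 barcodes that pass the same gate in the 4 libraries of the series.

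MB49 bladder carcinoma cells of the mouse formed the tumours, in Rag1-deficient hosts aged 8 to 10 weeks that lack T and B cells. Donor CD8+ T cells, from mice aged 18 months (Aged) or 8 weeks (Young), were given by vein on the day of tumour inoculation. The host strain is spelled B6.129S7-Rag1tm1Mom/J for Aged and B6.129S7-Rag1tm0Mom/J for Young. CD45+ CD8+ cells of 3 mice per group were sorted from the tumours and pooled into 1 library, so every cell had passed through transfer into a lymphocyte-free host as well as through the tumour. The other 2 libraries of the series compare wild-type and Bfar-deleted CD8+ T cells in tumours of hosts with their own T cells, and were not set against these.

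CD8 T cells kill tumour cells by releasing perforin and granzymes and by secreting cytokines such as interferon gamma. Under lasting antigen contact they take on an exhausted state, with several inhibitory receptors on the surface and the transcription factor TOX inside, while a smaller pool with the factor TCF-1 (Tcf7) keeps the capacity to renew. In old mice, naive CD8 T cells become scarce, and cells with memory features, including a granzyme K and PD-1 bearing population, make up more of the compartment.

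Each side is 1 library, so no difference given here has a replicate check, and mouse-to-mouse variation within a group could not be measured. Levels are UMIs per 1000000 UMIs of the gated cells (CPM). Brackets after a value hold its 95% interval, exact Poisson for a level, exact conditional binomial for a ratio and exact Clopper-Pearson for a share of cells. The intervals cover counting error only.

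Median depth was 5768 UMIs per Aged and 4510 per Young cell, and the gated cells held 65140183 and 60805219 UMIs. The CD8 T cell markers summed to 6092 CPM for Aged and 5640 CPM for Young, and none of the 9 was at 0. The list holds Cd3d, Cd3e, Cd3g, Cd8a and Cd8b1, which the gate itself used, so this is no independent check of cell identity. Male-expressed Ddx3y was at 50.6 and 47.1 CPM, and Xist had 6 and 0 UMIs, so neither library carried a female pattern. The libraries share 145 barcodes, 114 of them gated. Of 17 clusters of the gated cells, 4 were led by markers of macrophages, fibroblasts, dendritic cells or epithelium, and they held 252 Aged (3.05%) and 832 Young cells (8.49%). Dendritic cell markers summed over the gated cells to 908 CPM for Aged and 3886 CPM for Young, with 1 of 10 at 0 in Aged, and tumour or epithelial markers to 57.4 and 231 CPM. In the other 13 clusters, here called T cell clusters, the same sums were 186 against 197 CPM and 6.18 against 6.54 CPM. Ratios are therefore also given over the T cell clusters alone. The T cell clusters were filled unevenly: those led by Penk, Ccl1 and Tff1 (1057 Aged and 107 Young cells) and by Epha3, Ret and Maf (1491 and 218) were mostly Aged, and those led by Krt83 and Prrt1 (696 and 1667) and by haemoglobin genes, Ifitm1 and Ifitm2 (736 and 1898) mostly Young. Haemoglobin Hbb-bs had 1021 UMIs over all gated Aged cells and 63 over all gated Young cells, so the Young cells of that last cluster carried little of it.

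The Aged cells carried more inhibitory receptor RNA and more RNA of Gzmb, Gzmk, Gzmd, Gzme, Gzmf and Gzmg than the Young cells. They carried less RNA of Gzma, Gzmm, Tcf7 and some other naive and memory genes. In Aged, the RNA of Gzmd, Gzme, Gzmf and Gzmg lay mainly in cells with 1 T cell receptor segment. Of 7938 measured genes (at least 20 UMIs over both libraries and 10 CPM in 1), 208 (2.62%) stood at least 1.5-fold higher in Aged and 304 (3.83%) at least 1.5-fold lower. The counts of called members of each gene list below are to be read beside these shares. The ratio interval left out 1 for 5774 of the measured genes (72.7%). Intervals that stay apart are thus common at this depth and do not by themselves set a gene apart. The median log2 ratio, Aged over Young with 1 CPM added to each level, was 0.083 over all measured genes. Over the T cell clusters alone, 246 of 7783 genes (3.16%) were higher and 144 (1.85%) lower. Of the calls over all gated cells, 186 of the 208 higher and 126 of the 304 lower were also made there. Of the 178 lower calls that were not, 157 were of genes more than 5 times higher in the 4 other clusters than in the T cell clusters. With every cluster given equal weight, 36 of the 69 measured named genes that were called fell under the 1.5-fold line.

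**Figure D1:**
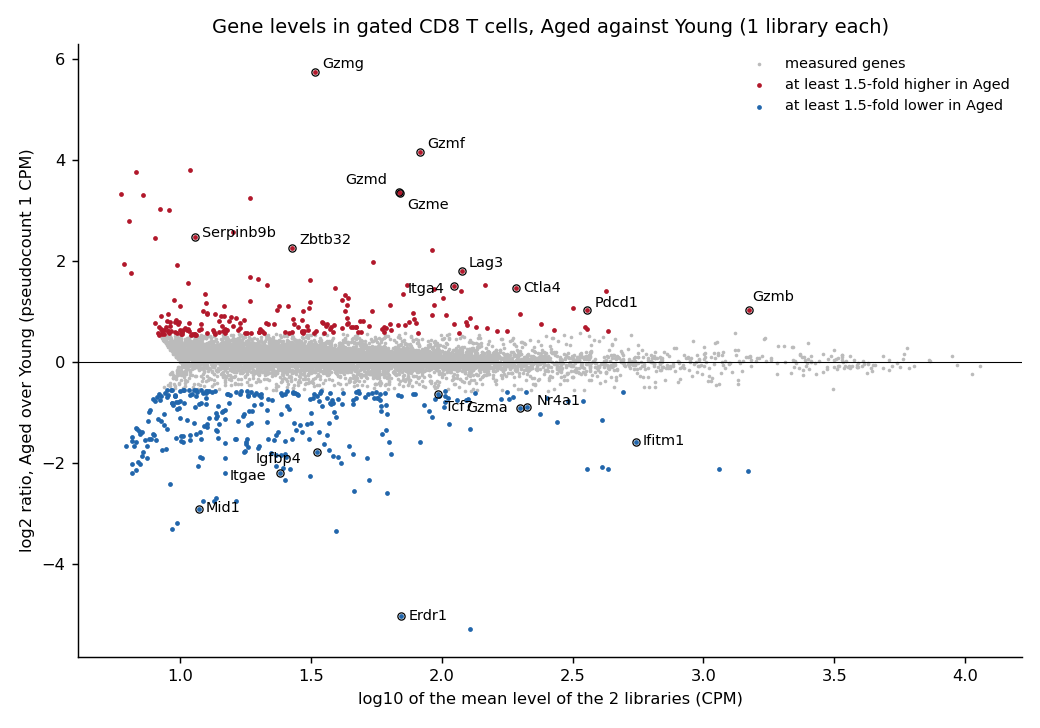
Log2 ratio of Aged over Young against the log10 mean level (CPM) of each measured gene, 1 library per side; red and blue points are at least 1.5-fold higher or lower in Aged. Gzmg, Gzmf, Gzmd and Gzme lie farthest up among the labelled genes and Erdr1 and Mid1 farthest down, while most genes lie close to 0.

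Inhibitory receptors, which restrain T cells when bound, were higher as a group. Of 15 listed, 12 were measured; 6 stood at least 1.5-fold higher and 1 lower, where 2.62% and 3.83% of all measured genes did. Their median log2 ratio was 0.55, against 0.083 over all genes (0.67 over 11 in the T cell clusters). Lag3, whose product binds MHC class II, was at 186 CPM (183 to 189) for Aged against 52.4 (50.6 to 54.3) for Young, a ratio of 3.55 (3.41 to 3.69). Ctla4, which competes with CD28 for its ligands, was at 283 CPM (279 to 287) for Aged against 102 (99.3 to 104) for Young, a ratio of 2.78 (2.704 to 2.87). Pdcd1, which encodes PD-1, was at 483 CPM (477 to 488) for Aged against 237 (233 to 241) for Young, a ratio of 2.04 (1.998 to 2.08). None of these intervals overlapped between the libraries, and Aged was the higher each time. Havcr2, which encodes TIM-3, was at 121 CPM (119 to 124) for Aged against 62.9 (60.9 to 64.9) for Young, and its ratio was 1.93 over all gated cells and 2.68 over the T cell clusters. Entpd1 (CD39, an enzyme that breaks down extracellular ATP) was at 74.5 CPM for Aged against 45.8 for Young, and Klrg1, a receptor of terminally differentiated effector cells, at 44.3 CPM for Aged against 25.3 for Young. Tigit was closer, at 267 CPM for Aged against 200.4 for Young (ratio 1.33 (1.304 to 1.37)). Cd160 did not differ beyond counting error, at 49.2 CPM (47.5 to 50.9) for Aged against 50.3 (48.6 to 52.1) for Young. Btla was the 1 member called lower, at 8.95 CPM for Aged against 13.7 for Young, but its ratio over the T cell clusters was 0.995. With every cluster given equal weight, the log2 ratio of Pdcd1 dropped from 1.02 to 0.50, that of Entpd1 from 0.69 to 0.39 and that of Klrg1 from 0.79 to 0.050, all under the 1.5-fold line, while Lag3, Ctla4 and Havcr2 stayed past it.

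The receptors were also found together in more cells. Because Aged cells were deeper, every cell was thinned to 2000 UMIs, which left 8051 Aged and 9192 Young cells and dropped 201 and 611 shallower ones. A share of cells with a UMI was read beside the share in barcodes with at least 10 keratin UMIs (146 Aged and 243 Young, median 27567.5 and 23276 UMIs), taken as tumour or epithelial-like. Gated barcodes were not left out of this set. It can therefore hold doublets with T cells and overlap with the gated cells, and serves as a rough background only. Lag3 was detected in 22.5% of Aged cells (21.5 to 23.4) and 6.799% of Young cells (6.29 to 7.33), against 0.685% and 2.06% of the keratin-high barcodes. Without thinning the Lag3 shares were 44.2% and 15.2%. Pdcd1 was detected in 42.1% of Aged and 27.7% of Young cells (background 4.79% and 4.94%), Ctla4 in 34.05% of Aged and 15.8% of Young cells (2.05% and 1.23%), Havcr2 in 15.7% of Aged and 7.85% of Young cells (2.05% and 3.29%) and Tigit in 38.5% of Aged and 31.3% of Young cells (1.37% and 5.35%). All of these lay above background, and each was higher in Aged. At least 3 of these 5 receptors were detected in 22.3% of Aged cells (21.4 to 23.2) and 6.21% of Young cells (5.73 to 6.72). None of the 5 was detected in 24.4% of Aged and 40.8% of Young cells. Over the T cell clusters the shares with at least 3 were 22.4% and 6.42%.

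**Figure D2:**
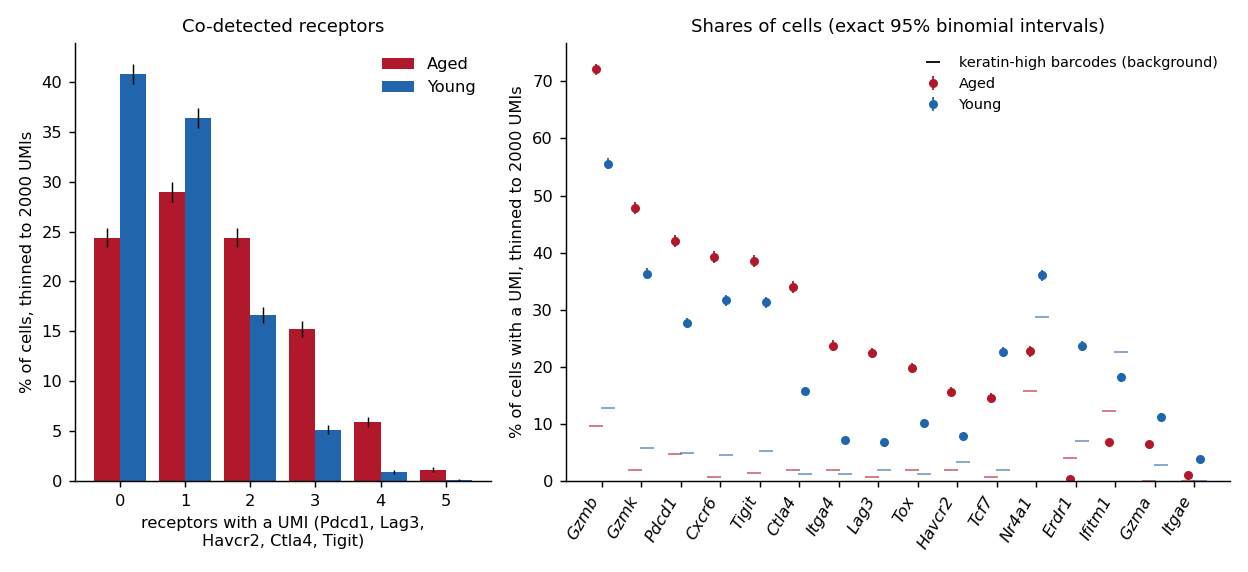
Left, percent of cells (thinned to 2000 UMIs) with a UMI of 0 to 5 of the receptors Pdcd1, Lag3, Havcr2, Ctla4 and Tigit; right, percent with a UMI of single genes, with horizontal ticks for keratin-high barcodes of the same library. Bars and whiskers are exact 95% binomial intervals; Aged cells hold the larger share at 2 or more receptors and Young cells at 0 or 1.

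Transcription factors of the exhausted state differed in both directions. Of 17 listed, 16 were measured, with 6 at least 1.5-fold higher and 1 lower, against 2.62% and 3.83% of all measured genes. Their median log2 ratio was 0.41. Zbtb32, a repressor induced in activated lymphocytes, was at 45 CPM (43.4 to 46.7) for Aged against 8.54 (7.82 to 9.302) for Young, a ratio of 5.27 (4.8 to 5.798). Maf, which drives Il10 and inhibitory receptor genes in T cells, was at 30.7 CPM (29.3 to 32.03) for Aged against 9.06 (8.32 to 9.85) for Young, a ratio of 3.38 (3.08 to 3.72). Tox, the factor that fixes the exhausted chromatin state, was at 137 CPM (134 to 139) for Aged against 71.4 (69.3 to 73.5) for Young, a ratio of 1.91 (1.85 to 1.99), and was detected in 19.7% of Aged and 10.2% of Young cells after thinning. Eomes, a T-box factor of memory and exhausted cells, was at 63.9 CPM (62.01 to 65.9) for Aged against 35.9 (34.4 to 37.5) for Young. These 4 stood higher in Aged with no overlap of intervals, as did Batf (ratio 1.81) and Prdm1 (1.53). Tbx21, the T-box factor of effector cells, was at 105 CPM for Aged against 77.6 for Young (ratio 1.35 (1.302 to 1.403)). The nuclear receptor Nr4a1, which is switched on by T cell receptor signalling and limits T cell function, went the other way, at 148 CPM (145 to 151) for Aged against 276 (272 to 280.3) for Young, a ratio of 0.537 (0.524 to 0.551). Its relatives Nr4a3 and Nr4a2 had ratios of 0.679 and 0.811. Outside the T cell clusters Nr4a1 was lower in Aged too. In the clusters led by other cell types it was at 153 CPM for Aged against 291 for Young. Among barcodes outside the gate it was at 181 CPM for Aged against 289 for Young. Keratin-high barcodes had an Nr4a1 UMI in 15.8% and 28.8% for Aged and Young and the gated cells in 22.7% of Aged and 36.03% of Young cells, so the share is not read as a difference. With equal cluster weights the Tox log2 ratio dropped from 0.93 to 0.41 and that of Eomes from 0.81 to 0.30.

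Leaving haemoglobin aside, 4 granzymes had the widest ratios among the named genes higher in Aged. Granzymes are serine proteases of the cytotoxic granule, and in the mouse Gzmb, Gzmc, Gzmf, Gzmn, Gzmg, Gzmd and Gzme lie in that order on chromosome 14, from chr14:56258838-56262260 for Gzmb to chr14:56117626-56120625 for Gzme (mm10, GENCODE M21). The 250 bases before the start site of Gzmd, Gzme, Gzmf, Gzmg and Gzmc (RefSeq, GRCm38.p6) are given because these neighbours included the 4 granzymes with the widest ratios, with Gzmc as the member that was not called. They are written 5′ to 3′ in the direction of transcription, with TGTGGT or its complement ACCACA, the core letters of RUNX factor sites, in capitals.
Gzmd promoter, chr14:56132594-56132843, minus strand: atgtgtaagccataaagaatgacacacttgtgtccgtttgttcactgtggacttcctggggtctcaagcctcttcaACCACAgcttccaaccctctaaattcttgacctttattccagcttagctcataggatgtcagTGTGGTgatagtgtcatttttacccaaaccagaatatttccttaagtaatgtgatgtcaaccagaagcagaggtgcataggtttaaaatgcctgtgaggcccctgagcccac
Gzme promoter, chr14:56120626-56120875, minus strand: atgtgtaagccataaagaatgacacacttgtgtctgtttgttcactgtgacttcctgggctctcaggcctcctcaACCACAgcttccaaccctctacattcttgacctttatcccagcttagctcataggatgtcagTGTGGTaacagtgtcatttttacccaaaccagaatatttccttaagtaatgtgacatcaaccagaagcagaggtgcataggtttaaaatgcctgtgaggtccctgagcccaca
Gzmf promoter, chr14:56211408-56211657, minus strand: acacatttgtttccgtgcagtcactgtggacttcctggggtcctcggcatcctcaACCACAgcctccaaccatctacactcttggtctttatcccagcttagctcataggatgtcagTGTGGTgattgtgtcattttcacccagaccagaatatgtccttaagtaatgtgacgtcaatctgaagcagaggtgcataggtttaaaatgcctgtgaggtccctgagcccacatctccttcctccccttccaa
Gzmg promoter, chr14:56159580-56159829, minus strand: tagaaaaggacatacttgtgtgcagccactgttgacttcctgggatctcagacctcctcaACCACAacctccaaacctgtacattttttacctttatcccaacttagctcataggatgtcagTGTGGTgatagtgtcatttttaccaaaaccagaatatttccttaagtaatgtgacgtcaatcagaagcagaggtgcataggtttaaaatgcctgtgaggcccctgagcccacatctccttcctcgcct
Gzmc promoter, chr14:56234658-56234907, minus strand: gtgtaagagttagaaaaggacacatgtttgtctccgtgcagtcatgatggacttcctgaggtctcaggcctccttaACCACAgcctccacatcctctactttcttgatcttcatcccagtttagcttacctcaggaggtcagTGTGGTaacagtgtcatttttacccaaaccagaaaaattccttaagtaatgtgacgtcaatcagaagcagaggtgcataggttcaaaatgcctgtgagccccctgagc
The Gzmd and Gzme windows were identical at 95.6% of 249 aligned positions, and Gzmg and Gzmf at 88.4% of 241. Each of the 5 held TGTGGT once on each strand. Over 27025 mouse promoter windows of this length, 14.2% held it on either strand. The letters TGACGTCA, a cyclic AMP response element, occurred in the Gzmg, Gzmf and Gzmc windows and in 1.62% of all windows. No match of one motif overlapped the other.

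Gzmg was at 65.4 CPM (63.5 to 67.4) for Aged against 0.2302 (0.126 to 0.386) for Young, where the Young level rests on 14 UMIs, and the ratio was 284 (169 to 520.2). Gzmf was at 158 CPM (155 to 161) for Aged against 7.83 (7.14 to 8.56) for Young, a ratio of 20.2 (18.4 to 22.2). Gzmd was at 126 CPM (124 to 129) for Aged against 11.2 (10.4 to 12.1) for Young, a ratio of 11.3 (10.4 to 12.2). Gzme was at 127 CPM (124 to 129.7) for Aged against 11.5 (10.7 to 12.4) for Young, a ratio of 11 (10.2 to 11.9). Aged stood higher for all 4 with no overlap of intervals, whereas neighbouring Gzmc differed less, at 93.6 CPM for Aged against 69.2 for Young (ratio 1.35 (1.301 to 1.41)). The transcripts of Gzmd and Gzme are 94.8% identical and those of the other pairs among these 4 between 86.4% and 90.3%, so the split of reads among them is uncertain. The 4 transcripts came from few cells. In Aged, 93 cells held all Gzmg UMIs, and the 100 cells with the most Gzmf held 97.9% of that gene's UMIs. These cells carried mainly 1 T cell receptor segment: Trbv12-1, assigned to 26.5% of the Aged cells, held 95.8% of Gzmd, 95.9% of Gzme, 96.1% of Gzmf, 96.9% of Gzmg and 85.9% of Gzmc UMIs. Without Trbv12-1 cells the log2 ratios were 1.63 for Gzmg, 0.044 for Gzmf, -0.64 for Gzmd, -0.70 for Gzme and -1.92 for Gzmc. In the Young library 61.4% of the few Gzmd UMIs lay in Trbv19 cells, and 50.3% of Gzme and 66.6% of Gzmf UMIs in Trbv13-2 cells. Serpinb9b, a serpin of the same effector cells, was at 20.05 CPM for Aged against 2.78 for Young (ratio 7.21), and Serpine2, a protease inhibitor, at 47.9 CPM for Aged against 14.9 for Young (3.21). Without Trbv12-1 cells their log2 ratios were -0.78 and -0.064. Barcodes that passed the filters but failed the T cell gate also held these transcripts, with Gzmd at 267 and 211 CPM in Aged and Young and Gzmg at 208 and 107 CPM. Gzmg had 1113 Aged and 729 Young UMIs there, against 4262 and 14 among the gated cells, so its ratio depends on the gate. Gzmc outside the gate was higher in Young, at 399 CPM for Aged against 1258 for Young.

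Of 18 cytotoxic genes, all measured, 8 were at least 1.5-fold higher and 2 lower, against 2.62% and 3.83% of all measured genes. The median log2 ratio was 0.36. The 8 were the 4 granzymes and Serpinb9b, given above, and Gzmb, Prf1 and Gzmk. The median was -0.14 without Trbv12-1 cells and -0.21 when the other-cell clusters and the unassigned cells were left out as well. Gzmb, which starts apoptosis in the target cell, was at 2012 CPM (2001 to 2023) for Aged against 977 (969.6 to 985) for Young, a ratio of 2.06 (2.04 to 2.08), and 6991 Aged cells had at least 1 UMI of it. After thinning it was detected in 72.1% of Aged cells (71.1 to 73.1) and 55.6% of Young cells (54.6 to 56.6) (background 9.59% and 12.8%). Prf1, the pore-forming perforin, was at 172 CPM (168 to 175) for Aged against 64.3 (62.3 to 66.4) for Young, a ratio of 2.67 (2.57 to 2.77), and 58.4% of its Aged UMIs lay in Trbv12-1 cells, without which its log2 ratio was 0.63 instead of 1.40. Gzmk, the granzyme of the population that accumulates in old mice, was at 439 CPM (434 to 444) for Aged against 279 (275 to 283) for Young, a ratio of 1.57 (1.54 to 1.602) (1.45 over the T cell clusters, under the 1.5-fold line). Gzmb and Gzmk were detected together in 38.0% of Aged (36.9 to 39.1) and 24.2% of Young cells (23.4 to 25.1). Gzma and Gzmm went the other way. Gzma was at 138 CPM (135 to 141) for Aged against 260.4 (256 to 264) for Young (ratio 0.5303 (0.517 to 0.544)), and Gzmm, a granzyme of innate-like lymphocytes, at 24.2 CPM (22.98 to 25.4) for Aged against 45.3 (43.7 to 47.1) for Young (0.533 (0.501 to 0.567)). With equal cluster weights the log2 ratio of Gzmb was 0.47 and that of Gzmk 0.12.

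All 20 listed genes of naive and memory cells were measured, with 2 at least 1.5-fold higher and 5 lower, against 2.62% and 3.83% of all measured genes. Their median log2 ratio was -0.28 (-0.37 over 18 in the T cell clusters). Tcf7 was at 75.3 CPM (73.2 to 77.4) for Aged against 118 (115 to 121) for Young, a ratio of 0.637 (0.614 to 0.661), and was detected in 14.6% of Aged cells (13.8 to 15.4) and 22.7% of Young cells (21.8 to 23.6) (background 0.685% and 2.06%). Id3, which preserves memory precursors, was at 11.2 CPM (10.4 to 12.02) for Aged against 23.9 (22.7 to 25.2) for Young, a ratio of 0.467 (0.427 to 0.511). Both were lower in Aged with no overlap of intervals, and with equal cluster weights both fell short of 1.5-fold, with log2 ratios of -0.25 for Tcf7 and -0.52 for Id3. Keratin-high barcodes had Id3 in 19.9% and 11.1% for Aged and Young, above the gated cells with 2.27% and 4.44%, so its share is not read as a difference. Outside the gate Id3 was at 50.9 CPM for Aged against 73.2 for Young. In the clusters led by other cell types it was at 34.5 against 29.4. Its ratio over the T cell clusters was 0.434. Igfbp4, a gene of naive T cells, was called lower at 14.4 CPM for Aged against 52.1 for Young, but 895 of its 935 Aged and 3029 of its 3169 Young UMIs lay in the clusters led by other cell types. Over the T cell clusters it was at 0.647 CPM for Aged against 2.76 for Young, under the measuring limit. Ccr7, a chemokine receptor that guides naive cells to lymph nodes, was at 96.7 CPM for Aged against 137 for Young. Il7r, the survival receptor for IL-7, had a ratio of 0.847 (0.818 to 0.878), and Klf2, which maintains homing receptors, 0.813 (0.797 to 0.829). Lef1, the partner of TCF-1, did not differ beyond counting error (69.1 CPM (67.1 to 71.2) for Aged against 68.9 (66.8 to 71.01) for Young), nor did Slamf6 (23.3 CPM (22.1 to 24.5) for Aged against 23.8 (22.6 to 25.1) for Young), a marker of the renewing exhausted pool. Cells with both Pdcd1 and Tcf7 were 2.97% of Aged and 4.85% of Young cells after thinning. Cd27, a costimulatory receptor kept on memory cells, was the highest of the list at 166 CPM (163 to 169) for Aged against 90.3 (87.9 to 92.7) for Young, a ratio of 1.84 (1.78 to 1.904). Without Trbv12-1 cells the list's median was -0.12 and the Tcf7 log2 ratio -0.45 instead of -0.64, under the 1.5-fold line.

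Of 18 genes associated with CD8 T cells of old mice, 17 were measured; 5 stood at least 1.5-fold higher and none lower, where 2.62% and 3.83% of all measured genes did. Their median log2 ratio was 0.13, against 0.083 over all genes. Itga4, the alpha 4 integrin chain used to enter inflamed tissue, was the highest at 166 CPM (163 to 169) for Aged against 57.6 (55.7 to 59.6) for Young, a ratio of 2.87 (2.77 to 2.99), and was detected in 23.7% of Aged cells (22.8 to 24.7) and 7.202% of Young cells (6.68 to 7.75) (background 2.05% and 1.23%). The other members called higher were Pdcd1, Tox, Eomes and Gzmk, given above. The virtual memory markers stayed close: Cd44 was at 191 CPM for Aged against 181 for Young, Il2rb, the IL-2 and IL-15 receptor chain, at 678 CPM for Aged against 621 for Young, and Cxcr3 at 140.5 CPM for Aged against 144 for Young. Sidt1 was the lowest, at 78.2 CPM for Aged against 102 for Young. Of the 5 called members, Pdcd1, Tox and Eomes also belong to the exhaustion lists.

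Among secreted factors, the chemokines Ccl3 and Ccl4, which attract leukocytes, stood higher in Aged. Of 18 measured cytokine and chemokine genes, 3 were higher and 4 lower, against 2.62% and 3.83% of all measured genes. Their median log2 ratio was -0.053. Ccl3 was at 110.1 CPM (108 to 113) for Aged against 37.5 (35.9 to 39.03) for Young, a ratio of 2.94 (2.802 to 3.08), and Ccl4 at 435 CPM (430.2 to 440.3) for Aged against 269.6 (265 to 274) for Young, a ratio of 1.61 (1.58 to 1.65). The intervals of neither overlapped between the libraries. With equal cluster weights the log2 ratio of Ccl4 dropped from 0.69 to 0.49, under the 1.5-fold line, while Ccl3 stayed past it at 1.27. Ccl4 was higher in Aged in 6 of the 13 T cell clusters and Ccl3 in 9. Outside the gate both were higher in Aged too, Ccl3 at 61.3 CPM for Aged against 27.6 for Young and Ccl4 at 347 against 139. Penk, the enkephalin precursor, was at 57.8 CPM for Aged against 20.2 for Young (ratio 2.86 (2.68 to 3.05)), but with equal cluster weights its log2 ratio dropped from 1.47 to 0.27. Ifng was at 307 CPM (303 to 311) for Aged against 219.5 (216 to 223) for Young, a ratio of 1.398 (1.37 to 1.43), while Tnf was at 50.6 CPM (48.9 to 52.4) for Aged against 65.98 (63.96 to 68.1) for Young, a ratio of 0.767 (0.732 to 0.803). Ccl5, the most abundant of the named chemokines, was at 6580.2 CPM for Aged against 5413 for Young. Ccl9 was called lower at 5.404 CPM for Aged against 16.3 for Young, yet its ratio over the T cell clusters was 1.37. Il10 was under the measuring limit in both libraries, at 2.901 CPM for Aged against 1.86 for Young.

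Of 17 measured integrin and residency genes, 1 was at least 1.5-fold higher and 5 lower, against 2.62% and 3.83% of all measured genes. Their median log2 ratio was -0.17. Itgae, which encodes the CD103 chain that ties T cells to epithelium, was at 7.97 CPM (7.297 to 8.68) for Aged against 40.2 (38.7 to 41.9) for Young, a ratio of 0.198 (0.1797 to 0.218) (0.184 over the T cell clusters). The clusters led by other cell types held 319 of its 519 Aged and 1552 of its 2447 Young UMIs, and over the T cell clusters it was at 3.24 CPM for Aged against 17.6 for Young. It was detected in 1.02% of Aged and 3.88% of Young cells after thinning, and in none of the keratin-high barcodes. Itgae is a target of TGF-beta signalling. The measured genes of that pathway had a median log2 ratio of -0.25 with none of 10 past 1.5-fold over the gated cells. The feedback inhibitor Smad7 was lowest at 259.7 CPM (256 to 264) for Aged against 380 (375 to 385) for Young. Over the T cell clusters Smad7 had a ratio of 0.641 and was the 1 member called lower. The ligand Tgfb1 was at 382 CPM for Aged against 355 for Young. Whether the pathway and the Itgae level are linked here was not tested. Cxcr6, a receptor that holds T cells in tissue, was at 295 CPM (290.4 to 299) for Aged against 205 (202 to 209) for Young, a ratio of 1.43 (1.402 to 1.47). Itga1, the collagen-binding residency integrin, was at 15.5 CPM for Aged against 14.04 for Young. Cx3cr1, of circulating effector cells, was at 12.97 CPM for Aged against 14.7 for Young and Gpr55, a lipid receptor of intestinal lymphocytes, at 13.4 CPM for Aged against 24.98 for Young. The NK-type adaptor Tyrobp was at 15.95 CPM for Aged against 60.9 for Young, a ratio of 0.262, and over the T cell clusters at 2.39 CPM for Aged against 15.4 for Young, a ratio of 0.156. Its partner Fcer1g had ratios of 0.405 and 0.222.

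Costimulatory and signalling genes differed little apart from single members. Of 14 costimulatory receptors 2 were higher and none lower; Tnfrsf4 (OX40), induced on activated T cells, was at 218 CPM (214 to 222) for Aged against 74.5 (72.4 to 76.7) for Young, a ratio of 2.92 (2.83 to 3.02), and the other was Cd27. Of 23 T cell receptor signalling genes 1 was higher and none lower: Themis, which sets the signalling threshold, was at 301 CPM (296 to 305) for Aged against 178 (175 to 182) for Young, a ratio of 1.68 (1.64 to 1.72). Of 25 genes of the common gamma chain and JAK-STAT pathway 2 were higher and none lower, Jak3 at 95.8 CPM (93.5 to 98.2) for Aged against 54.5 (52.6 to 56.4) for Young and Stat3 with a ratio of 1.54. Medians of these lists were 0.16, 0.17 and 0.11. Immediate early genes, which respond within minutes to stimulation and to tissue digestion, had the lowest median of the 34 gene lists, -0.37, with 4 of 21 at least 1.5-fold lower and none higher. Fos was at 284 CPM (279.7 to 288) for Aged against 416 (411 to 421) for Young, a ratio of 0.683 (0.794 over the T cell clusters), and Atf3 at 34.4 CPM for Aged against 88.5 for Young, a ratio of 0.388 (0.8198). Fos was detected in 84.9% and 81.9% of the keratin-high barcodes and 32.8% of Aged and 38.7% of Young cells, so its share is not read as a difference.

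The lists of glycolysis and of sterol synthesis had medians above that of all genes. Of 24 glycolysis and hypoxia genes, all measured, 2 were at least 1.5-fold higher and none lower, 22 had a log2 ratio above 0, and the median was 0.37. Over the T cell clusters 7 of 22 were higher, with a median of 0.44. Slc2a3, a glucose transporter, was at 44.2 CPM (42.6 to 45.9) for Aged against 18.7 (17.6 to 19.8) for Young, a ratio of 2.37 (2.21 to 2.54), and Slc16a3, a lactate exporter, had a ratio of 2.08 (1.94 to 2.23). Glycolytic enzymes differed by less each: Tpi1 had a ratio of 1.498, Aldoa 1.49, Pgk1 1.41, Ldha 1.31 and Gapdh 1.299. Egln3, an oxygen sensor induced by hypoxia, was the lowest member at 8.89 CPM for Aged against 10.8 for Young, but its ratio over the T cell clusters was 1.94. Of 22 cholesterol and fatty acid synthesis genes 4 were higher and none lower, with 21 above 0 and a median of 0.28. Fdft1, which makes squalene, was at 46.9 CPM (45.2 to 48.6) for Aged against 28.5 (27.2 to 29.9) for Young, a ratio of 1.64 (1.55 to 1.74). Insig1, which holds the pathway back when sterols are plentiful, was the lowest at 53.8 CPM for Aged against 61.1 for Young. The 30 nuclear genes of oxidative phosphorylation had a median of 0.030 with none past 1.5-fold, and the 13 mitochondrially encoded genes 0.10.

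Metal-binding and amino acid stress genes gave large single ratios. Mt3, a metallothionein, was at 16 CPM (15.04 to 17) for Aged against 3.45 (3.002 to 3.95) for Young, a ratio of 4.63 (3.99 to 5.398). Mt1 had a ratio of 2.11 over all gated cells and 3.88 over the T cell clusters, and Mt2 2.22 and 4.81. All 3 metallothioneins were thus higher in Aged in both sets of cells. Of the iron genes in the same list, Hmox1, which degrades haem, was at 10.9 CPM for Aged against 19.9 for Young, but its ratio over the T cell clusters was 0.832. Fth1 had a ratio of 0.688. Asns, which makes asparagine and is a target of the ATF4 stress response, was at 18.3 CPM (17.3 to 19.4) for Aged against 6.61 (5.98 to 7.29) for Young, a ratio of 2.77 (2.47 to 3.11). It was the 1 member past 1.5-fold among 24 measured unfolded protein response genes (median -0.039). Txnip, a glucose-responsive gene, was at 214 CPM (211 to 218) for Aged against 139.6 (137 to 143) for Young, a ratio of 1.53 (1.49 to 1.58). Txnip was also higher in Aged in the clusters led by other cell types, at 139 CPM for Aged against 82.6 for Young. Outside the gate it was at 94.2 CPM for Aged against 63.8 for Young. Haemoglobin transcripts also differed, with Hbb-bs at 15.7 and 1.04 CPM, and the erythroid markers summed over the T cell clusters to 37.1 and 3.54 CPM. Their part in the other differences was not tested.

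Cell cycle, interferon and proteostasis lists had few members past 1.5-fold. None of 25 S phase genes and 1 of 26 G2 and M phase genes, Plk1, was past 1.5-fold, and Mki67, a marker of dividing cells, was at 139 CPM for Aged against 129 for Young. Of 21 senescence and DNA damage genes 2 were higher and 1 lower. Cdkn2a, whose products include p16, a cell cycle inhibitor of senescent cells, was at 56.4 CPM (54.6 to 58.3) for Aged against 30.5 (29.2 to 31.9) for Young, a ratio of 1.85 (1.75 to 1.96). The counts are per gene and do not separate its products. Cdkn1a (p21) was at 112 CPM for Aged against 127 for Young. Of the Cdkn2a UMIs in Aged, 41.2% lay in Trbv12-1 cells, and without them the log2 ratio was 0.57 instead of 0.87, under the 1.5-fold line. In Aged 39.6% and in Young 40.2% of Cdkn2a UMIs lay in the cluster led by histone genes, which are made in S phase. Of 24 apoptosis genes 2 were higher, Casp1 (54.6 CPM (52.8 to 56.4) for Aged against 32.2 (30.7 to 33.6) for Young) and Casp4 (ratio 1.64), both inflammatory caspases, and Bcl2a1a was lower (3.91 CPM for Aged against 19.4 for Young). Of the Bcl2a1a UMIs, 224 of 255 in Aged and 1122 of 1182 in Young lay in the clusters led by other cell types, and over the T cell clusters it was under the measuring limit, at 0.502 CPM for Aged against 1.18 for Young. Of 38 type I interferon response genes 2 were higher and 3 lower with a median of 0.0057: Ifi44 was at 11.8 CPM for Aged against 6.41 for Young and Isg15 at 322 CPM for Aged against 382 for Young. Oasl1, called lower at 20.6 CPM for Aged against 67.7 for Young, had a ratio of 1.04 over the T cell clusters. Ifitm1 and Ifitm2, membrane proteins that restrict virus entry, were at 276 CPM (272 to 279.9) for Aged against 825 (818 to 832) for Young and at 156 CPM (153 to 159) for Aged against 318 (313 to 322) for Young. Their ratios over the T cell clusters were 0.299 and 0.493. With equal cluster weights their log2 ratios were -0.65 and -0.21, the second under the 1.5-fold line, and Ifitm2 was higher in Aged in 7 of the 13 T cell clusters. The keratin-high barcodes had Ifitm1 in 12.3% and 22.6% and Ifitm2 in 56.8% and 58.8% for Aged and Young, above the gated cells with 6.96% of Aged and 18.2% of Young cells for Ifitm1 and 10.6% of Aged and 20.2% of Young cells for Ifitm2, so these shares are not read as differences. None of 31 interferon gamma response genes, 37 proteasome subunits, 81 ribosomal proteins and 23 chromatin regulators was past 1.5-fold, and 1 of 16 heat shock genes was, Hspb1 at 10.6 CPM for Aged against 39.8 for Young. Of the Hspb1 UMIs, 604 of 690 in Aged and 2184 of 2422 in Young lay in the clusters led by other cell types, and over the T cell clusters it was at 1.39 CPM for Aged against 4.69 for Young, under the measuring limit. Of 8 Gimap genes, which support lymphocyte survival, Gimap7 alone passed, at 157 CPM (154 to 160.1) for Aged against 90.2 (87.8 to 92.6) for Young.

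**Figure D3:**
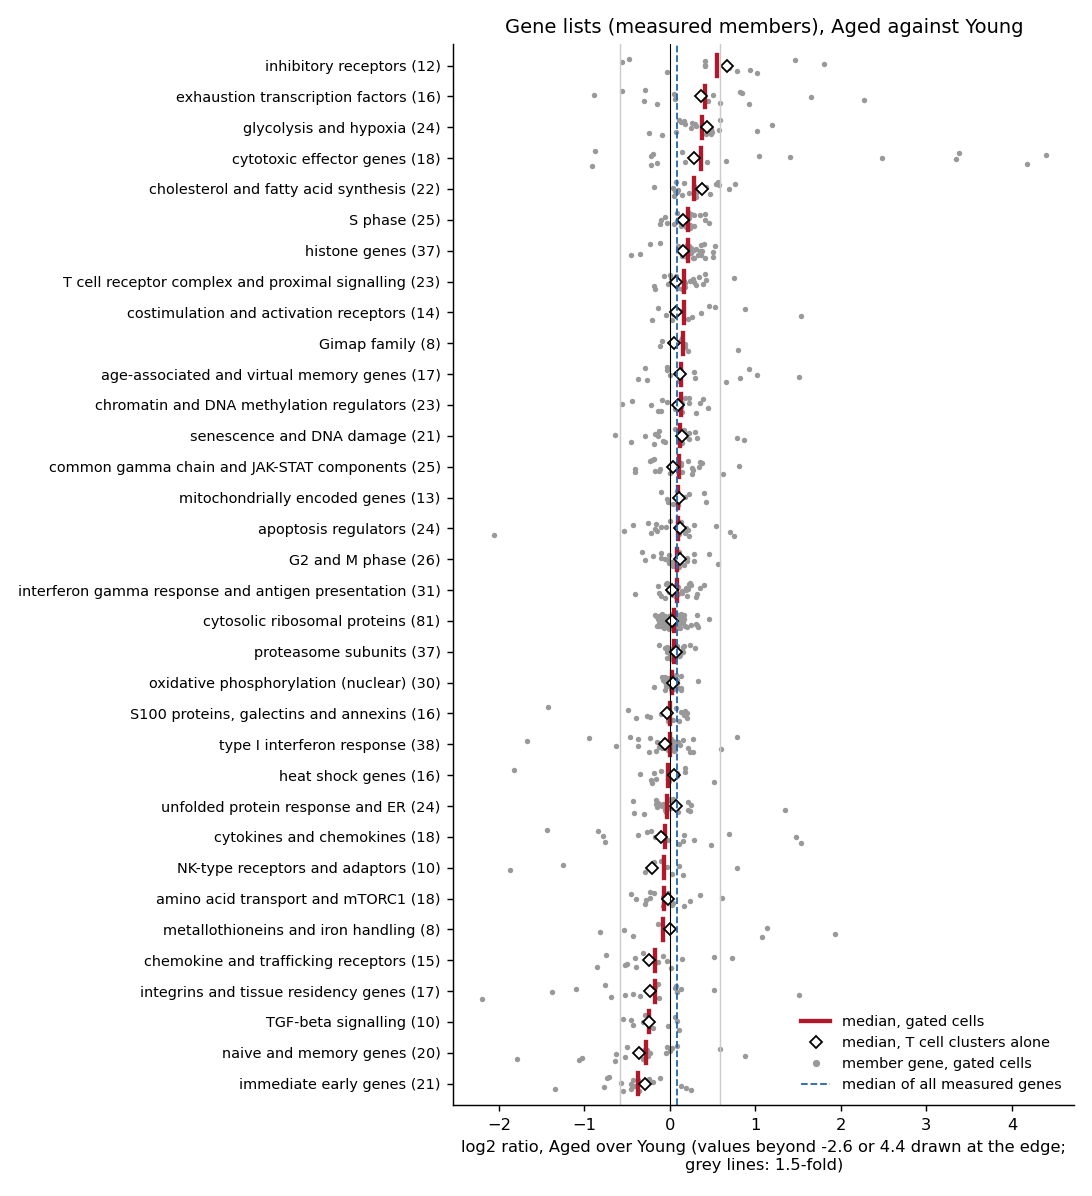
Log2 ratio (Aged over Young) of the measured members of each gene list, ordered by the list's median; red bars are medians over the gated cells, diamonds medians over the T cell clusters, and the dashed line is the median of all measured genes. Inhibitory receptors have the highest median and immediate early genes and naive and memory genes the lowest.

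Neighbouring genes at the ends of the sex chromosomes set the libraries apart in every receptor segment and T cell cluster. Erdr1 was at 3.21 CPM (2.79 to 3.67) for Aged against 137 (134 to 139.9) for Young, a ratio of 0.0234 (0.0203 to 0.0269), and Mid1, a ubiquitin ligase of microtubules, at 2.01 CPM (1.68 to 2.39) for Aged against 21.6 (20.4 to 22.8) for Young, a ratio of 0.0932 (0.0773 to 0.112). Both lie at the distal end of the X chromosome, Mid1 at chrX:169685199-170005736 and Erdr1 at chrX:170009659-170019281 (mm10, GENCODE M21), in and beside the pseudoautosomal region that X and Y share. Gm47283, listed at chrY:90784738-90816464 on the Y chromosome and named after its value was seen, was at 5.45 CPM for Aged against 252 for Young. Reads of the X and Y copies of this region may not be separable. The 3 are therefore not read as independent differences, although each enters the counts of called genes on its own. Erdr1 was detected in 0.472% of Aged cells (0.334 to 0.647) and 23.7% of Young cells (22.8 to 24.5) after thinning, and the Aged share lay below that of the keratin-high barcodes of that library (4.11%). Within the 16 receptor segments and within the 13 T cell clusters, Erdr1 and Mid1 were lower in Aged every time. In the clusters led by other cell types Mid1 was at 15.6 CPM for Aged against 17.3 for Young, and among barcodes outside the gate at 16.97 and 19.1 CPM. Erdr1 was lower in Aged there too, at 14.99 CPM for Aged against 75.3 for Young in those clusters and 25.5 and 62.04 CPM outside the gate. With 1 pooled library per side, the age of the donors and other differences between these donors cannot be told apart.

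Receptor segments gave a view of which cell families made up each library. Each cell was assigned the V beta segment (Trbv) with the most UMIs, which succeeded for 92.4% of Aged and 90.5% of Young cells. A segment is shared by many clones, and paired receptor sequences were not used here. Trbv12-1 was the most frequent in Aged, at 26.5% (25.5 to 27.5) of Aged and 13.9% (13.2 to 14.6) of Young cells. Trbv26 was the most frequent in Young, at 1.23% (0.998 to 1.51) of Aged and 18.3% (17.5 to 19.1) of Young cells. Trbv1 was assigned to 11.8% of Aged and 3.47% of Young cells, Trbv13-3 to 8.38% of Aged and 1.78% of Young cells, Trbv15 to 7.14% of Aged and 1.05% of Young cells and Trbv13-1 to 6.32% of Aged and 2.796% of Young cells, all higher in Aged. Trbv13-2 was assigned to 3.71% of Aged and 12.1% of Young cells, Trbv19 to 3.92% of Aged and 9.17% of Young cells, Trbv12-2 to 6.94% of Aged and 11.1% of Young cells and Trbv16 to 5.497% of Aged and 8.75% of Young cells, all higher in Young. The intervals of none of these 10 segments, each at 5% or more in 1 library, overlapped between libraries. Those of the rarer Trbv14, Trbv29, Trbv17, Trbv5, Trbv30, Trbv3, Trbv4, Trbv20 and Trbv31 stayed apart as well, whereas those of Trbv2, Trbv21, Trbv23 and Trbv24 overlapped. The intervals treat cells as independent draws, which cells of 1 clone are not. The 3 leading segments held 46.7% of Aged and 44.3% of Young cells, and the effective number of segments (inverse Simpson index) was 8.58 and 9.80. The transcripts of Trbv12-1 and Trbv12-2 are 88.3% identical, so some cells may be assigned to the wrong member of that pair.

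**Figure D4:**
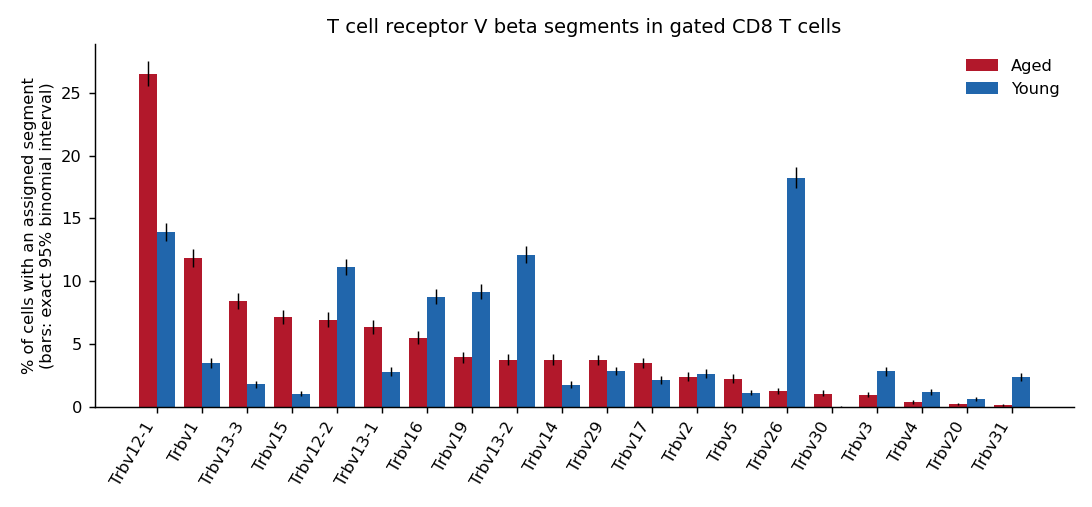
Percent of assigned cells per V beta segment in Aged and Young, for segments with at least 50 cells over both libraries; whiskers are exact 95% binomial intervals. Trbv12-1 reaches 26.5% in Aged and Trbv26 18.3% in Young.

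Ratios were also computed between cells of the same segment, within each of the 16 segments with at least 50 cells in both libraries. Ctla4, Maf, Ccl3, Cd27, Themis and Slc2a3 were higher in Aged in all 16. Lag3 was higher in 15 of 16, with log2 ratios from -0.28 to 3.42, Tox in 15, Itga4 in 15, Zbtb32 in 15, Pdcd1 in 14, Gzmb in 14 and Havcr2 in 13. Gzmf was higher in 11 and Gzmg in 7. Nr4a1 and Itgae were lower in all 16, and Tcf7 was lower in 13 and higher in 3. Over all measured genes, 174 (2.19%) were higher and 71 (0.894%) lower in all 16 segments. Of the 208 genes called higher 45 were higher in every segment, and 21 of these were also higher in each of the 13 T cell clusters, Ctla4, Themis and Txnip among them. Of the 304 called lower 37 were lower in every segment, and 13 of these in each T cell cluster too, Erdr1, Mid1 and Nr4a1 among them.

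The main exception for the inhibitory receptors was Trbv19, where Young cells carried the levels seen elsewhere in Aged. Within Trbv19 cells Lag3 was at 145 CPM for Aged against 176 for Young, whereas within Trbv12-1 cells it was at 258 CPM for Aged against 26.2 for Young. Pdcd1 was at 382 CPM for Aged against 434 for Young within Trbv19 cells and at 522 CPM for Aged against 156 for Young within Trbv12-1 cells. In the Young library Trbv19 cells were 9.17% of assigned cells and held 46.6% of all Lag3 and 25.5% of all Pdcd1 UMIs. Ctla4 was still higher in Aged among Trbv19 cells, at 250.3 CPM for Aged against 138 for Young, and so was Gzmb, at 1771 CPM for Aged against 545 for Young. The median over the inhibitory receptors was -0.080 within Trbv19 and -0.072 within Trbv5, and between 0.16 and 1.22 in the other 14 segments. The glycolysis list had a positive median in 15 of the 16 segments. The naive and memory list was less even, with medians from -1.06 within Trbv15 to 0.57 within Trbv19.

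**Figure D5:**
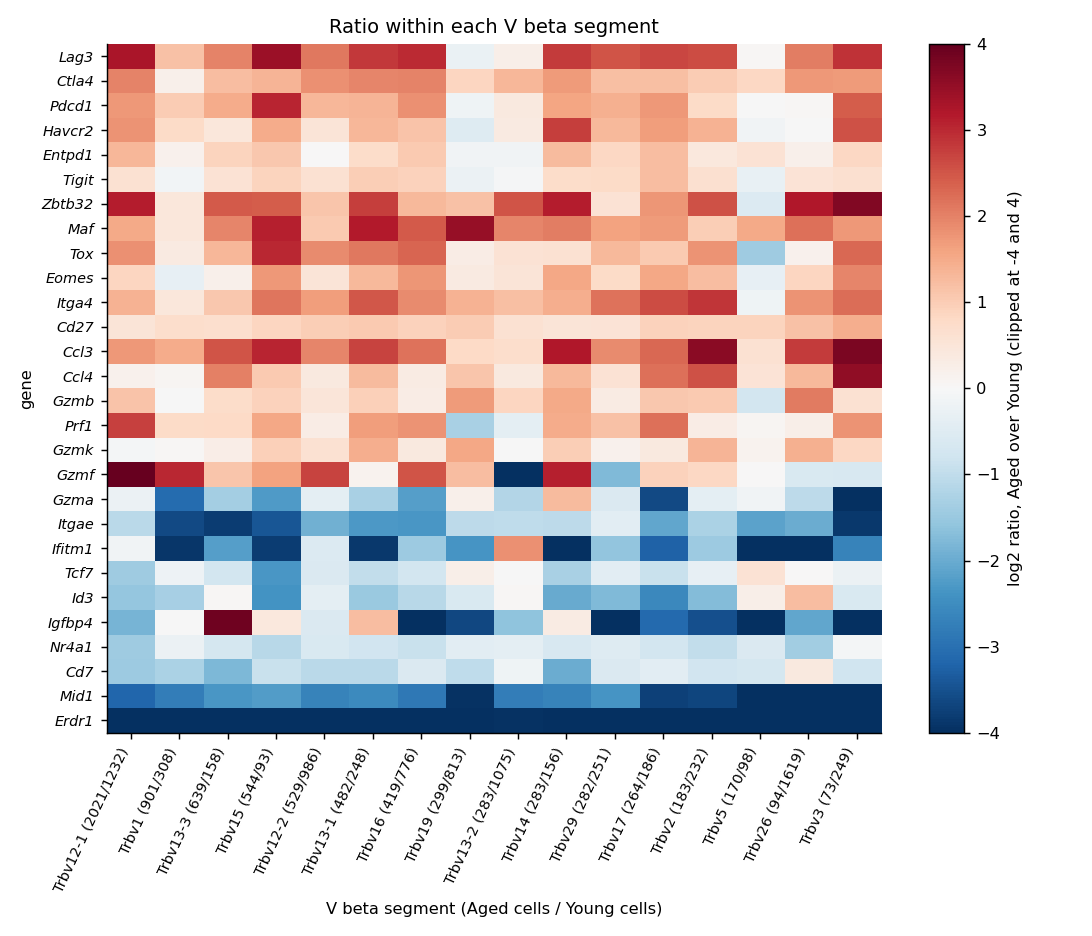
Log2 ratio, Aged over Young, of 28 genes within each of 16 V beta segments, clipped at -4 and 4; cell numbers (Aged/Young) follow each segment's name. Lag3 and Ctla4 are red in nearly every column, Gzmf mainly in Trbv12-1 and a few others, and Erdr1 is at the lower limit in nearly all.

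Bfar, the gene that the other pair of libraries deletes, was at 26.02 CPM (24.8 to 27.3) for Aged against 22.1 (20.97 to 23.4) for Young, a ratio of 1.18 (1.09 to 1.26), and 1.18 over the T cell clusters. Its product, the bifunctional apoptosis regulator, is an E3 ubiquitin ligase anchored in the endoplasmic reticulum. The higher Aged level held in 13 of 16 segments. The share of cells with a UMI after thinning was 5.39% of Aged and 4.395% of Young cells. In keratin-high barcodes it was 1.37% and 6.17%, from 2 of 146 Aged and 15 of 243 Young barcodes. Whether those cells express Bfar themselves was not tested, so they set no background for it, and the shares are not read as a difference. Jak2, a kinase of cytokine receptors, was at 101 CPM (98.7 to 104) for Aged against 117 (114 to 119) for Young over all gated cells, a ratio of 0.867 (0.838 to 0.897), and its ratio was 1.06 over the T cell clusters. The Jak2 ratio thus lay on either side of 1 depending on the clusters counted, and neither Bfar nor Jak2 reached 1.5-fold.

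Few cells carried transcripts of other T cell classes. Cd4 was under the measuring limit, at 7.14 CPM (6.504 to 7.82) for Aged against 0.674 (0.484 to 0.915) for Young, from 465 and 41 UMIs. Of the Aged Cd4 UMIs 72.3% lay in Trbv12-1 cells, and 239 Aged cells had at least 1. Foxp3, the factor of regulatory T cells, was at 0.844 CPM for Aged against 0.987 for Young and did not differ beyond counting error. NK cell markers summed over the T cell clusters to 215 CPM for Aged and 369 CPM for Young, a list that holds Eomes and Gzma, which CD8 T cells also express. The sort on CD45 and CD8 would remove most cells of these other classes. Doublets were not called and may remain.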

How the data were processed

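CD45+ CD8+ T cells from MB49 tumours were measured by droplet single-cell RNA sequencing with an immune profiling kit, per the labels. The deposited values are whole-number UMI counts per gene and barcode, written by Cell Ranger 7.1.0 per the file headers of these 2 libraries. Cell Ranger 6.0.0, Seurat 3.2.3 and mm10 appear in the submitters' processing notes, which leaves the version unsettled. The sources used here give neither the annotation release nor the cell calling settings. All 31253 listed genes were read.

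Groups come from the labels, with 1 library each (8252 Aged and 9803 Young gated cells). Counts were summed over gated cells and scaled to CPM, with 1 CPM added for log2 ratios. No significance test was possible, and called means a CPM ratio past 1.5. Clusters (scanpy 1.11.5, Leiden at resolution 1, 2000 variable genes, 30 components, 15 neighbours) served to weight and locate cells only. The cell type markers and the exclusion of 4 clusters were set with the data known. Doublets were not called; an alternative leaves out the 8% of cells with the most UMIs. Thinning drew 2000 UMIs per cell. The level and interval steps were tested on simulated gene totals with counting error only. Thinning was checked on gated Aged cells of these data, for exact totals and for no count above the original.

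The members, the 34 gene lists and the 15 marker lists were chosen with earlier results of these data known. Named genes are 1) the 15 largest and 15 smallest log2 ratios among genes that reached 20 CPM on 1 side and 50 UMIs in all, leaving out receptor, mitochondrial, ribosomal, haemoglobin and sex-linked genes, unnamed models, other cells' markers and genes over 5 times higher in other cells, 2) the highest and lowest member of each list, 3) a set of known T cell genes and 4) Trbv segments with at least 5% of the assigned cells in 1 library. Batf, Prdm1, Nr4a2, Nr4a3, Stat3, Fcer1g, Slc16a3, Tpi1, Aldoa, Pgk1, Ldha, Gapdh, Fdft1, Mt1, Mt2, Fth1, Casp4 and Hbb-bs were named after their values were seen. Some genes that the rule names are not reported here. Promoter windows came from RefSeq (GRCm38.p6), where 99 of the 131 named genes matched.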

Additional observations from a re-analysis of the deposited data

How the results depend on the processing

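Each alternative changed 1 choice, except 1 added after the data were seen (no other-cell clusters, no Trbv12-1 cells and no unassigned cells, called the joint exclusion here). Of 131 named genes, 120 to 131 kept the sign of their log2 ratio under the 9 planned settings that can change it (the pseudocount and the filters cannot), and 113 under the joint exclusion. Genes at least 1.5-fold higher, 208 in the report, numbered 128 with a pseudocount of 5 CPM, 2773 with no filter on low counts, 71 with a filter at 50 CPM and 125 with equal cluster weights. Genes lower, 304 in the report, numbered 5703 with no filter, 89 at 50 CPM, 144 without other-cell clusters, 134 without the 8% of cells with the most UMIs, 154 with every cell weighted alike, 154 after thinning, 59 with equal cluster weights and 136 under the joint exclusion.

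The inhibitory receptor median (0.55) was 0.47 with median-of-ratios size factors, 0.42 with no filter, 0.81 at 50 CPM, 0.67 without other-cell clusters, 0.46 with every cell weighted alike, 0.46 after thinning, 0.30 with equal cluster weights and 0.47 without Trbv12-1. In the same settings the exhaustion factor median (0.41) was 0.33 with size factors, 0.22 at 50 CPM, 0.36 without other-cell clusters, 0.36 with cells alike, 0.34 after thinning and 0.17 with equal cluster weights. The naive and memory median (-0.28) was -0.37 with size factors, -0.37 without other-cell clusters, -0.21 with cells alike, -0.23 after thinning, -0.066 with equal cluster weights, -0.12 without Trbv12-1 and -0.20 under the joint exclusion. The age-associated median (0.13) was 0.043 with size factors, 0.10 without the deepest 8%, 0.097 with cells alike, 0.038 with equal cluster weights, 0.16 with equal V beta weights, 0.21 without Trbv12-1 and 0.20 under the joint exclusion. None of these 4 medians changed sign, but 17 of the 34 list medians did so under at least 1 setting, 13 of them within 0.1 of 0 in the report. The other 4 were the cytotoxic median (0.36), at -0.14 without Trbv12-1 and -0.21 under the joint exclusion, the S phase and histone medians (both 0.21), at -0.055 and -0.0058 with equal cluster weights, and the senescence median (0.12), at -0.060 with a filter at 50 CPM. The median of all genes ranged from -0.0016 to 0.085.

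Reversed log2 ratios, without Trbv12-1 and under the joint exclusion, were -0.64 and -1.18 for Gzmd, -0.70 and -1.10 for Gzme, -0.78 and -1.26 for Serpinb9b and -0.064 and -0.26 for Serpine2. Gzmf reversed under the joint exclusion only (-0.70). Without other-cell clusters and under the joint exclusion, Ccl9 gave 0.16 and 0.12 and Oasl1 0.050 and 0.20. Hspb1 gave 0.20 with equal V beta weights. The cause was not tested. No paired analysis was possible because each group is 1 library. With no replicates, depth narrows the counting intervals but not the uncertainty between animals.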
